A study of Sus scrofa with 6 samples.

Results

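Apolipoprotein E (APOE), the cholesterol exporter ABCA1 and other targets of the liver X receptors (LXR) were followed in abdominal aorta of miniature swine by RNA sequencing. The list held 10 symbols, APOE, ABCA1, ABCG1, NR1H3, SCD, FASN, PLTP, MYLIP, LPCAT3 and SMPDL3A. Of these, 9 had a row under their own symbol. NR1H3 was found as the row labelled LXR, whose identifier ENSSSCG00000013241 is NR1H3 in a reference table of names, and a further row without a symbol, ENSSSCG00000005423, is ABCA1 in that table. This gave 11 rows for 10 genes, out of 22861 rows in all.

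The tissue came from Wisconsin Miniature Swine (WMS). The first group was WMS FH, a line with familial hypercholesterolaemia, an inherited excess of blood cholesterol, and its aorta carried atherosclerotic lesions. The other was WMS normal swine with lesion-free aorta. In each group the RNA of 11 animals went into 3 pools, numbered 1 to 3 (lesion) and 4 to 6 (lesion-free), and the labels give no age, sex, diet or animal list for a pool. Line and lesion went together in every pool, so their effects cannot be told apart. Each n below counts pools, and p-values reflect how much pools vary, not how much animals do.

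LXR are nuclear receptors that sense oxysterols, which are oxidised forms of cholesterol. They pair with a retinoid X receptor (RXR) on the DNA of their target genes. In cholesterol-loaded cells such as the foam cells of arterial lesions, their targets export cholesterol to lipoproteins, limit its uptake and build and remodel fatty acids.

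The lesion pools held 4650176, 10055160 and 11442433 counts, and the lesion-free pools 10826175, 8492673 and 9900513. Lesion pool 1 was the shallowest. Levels are in CPM, counts scaled to a common library size with TMM factors that correct for the makeup of each library, and 3 counts equal 0.576 CPM in lesion pool 1 and 0.268 to 0.359 CPM elsewhere. Since longer transcripts give more counts and transcript lengths were not used, levels are compared between pools and not between genes. Smooth muscle markers marked the tissue as arterial wall, with a summed level of 29116, 39844 and 42022 CPM in lesion pools 1, 2 and 3, against 78975, 67429 and 70217 CPM in lesion-free pools 4, 5 and 6. The summed level of 12 macrophage marker rows was 3141, 1412 and 2944 CPM in lesion pools, against 360.1, 247.9 and 192.1 CPM in lesion-free pools.

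Of the 11 rows, APOE, both ABCA1 rows and SCD rose in the lesion pools, and none fell. All 11 passed the filter on low counts. ABCG1, PLTP and SMPDL3A did so only through their lesion pools, since 0, 2 and 1 of their lesion-free pools reached its level and it asks for 3. With limma, 4 rows were called higher and 0 lower at an adjusted p under 0.05. Among all 11673 rows tested, 0.968% were called higher and 0.0771% lower. At an unadjusted p under 0.05, 6 rows were higher and 0 lower, where 6.47% of all tested rows were higher and 4.17% lower. In 7 rows every lesion pool stood above every lesion-free pool, in 4 rows the groups overlapped, and over all tested rows the share was 10.4% for lesion higher and 9.01% for lesion lower. The median log2 fold was 2.52 over the 11 rows and -0.00 over all tested rows. ABCG1, PLTP and SMPDL3A are among the 7 separated rows, and PLTP and SMPDL3A among the 6, but the filter alone favoured a higher lesion level in them, so these counts and the median only describe the rows. With an exact permutation test of 3 pools against 3, the smallest possible p is 0.1, which each of the 7 separated rows reached. In bulk tissue, fewer cells of a type and less RNA per cell cannot be told apart, and this holds for every gene below.

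**Figure D1:**
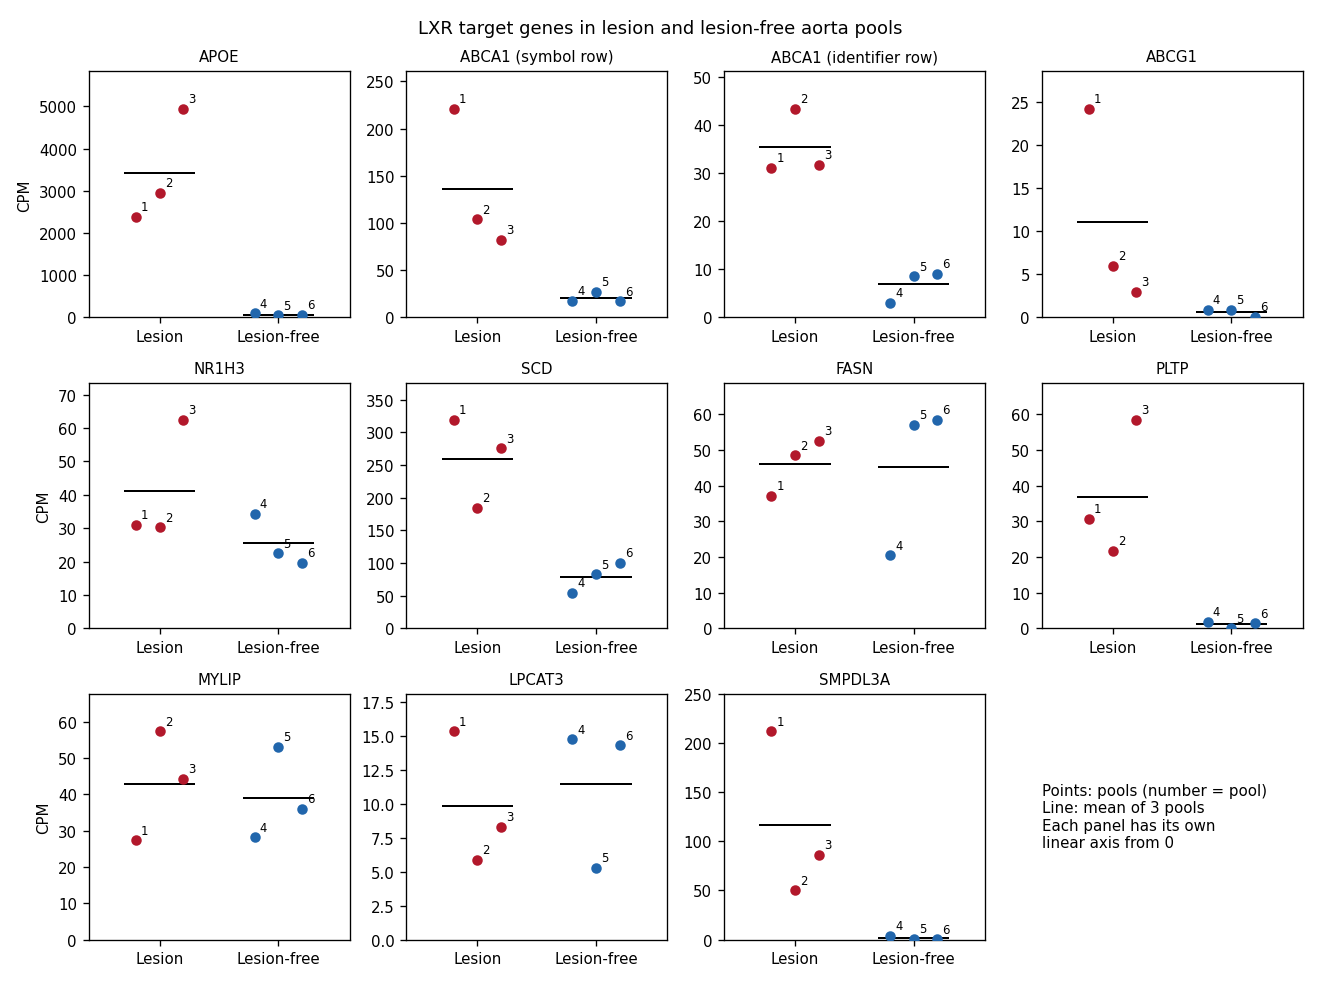
Level of each of the 11 LXR target rows in CPM (vertical axis, linear from 0, own scale per panel) in the lesion pools (red, numbered 1 to 3) and lesion-free pools (blue, numbered 4 to 6), with the mean of each group as a line. APOE lies between 2376 and 4942 CPM in lesion pools and between 41.8 and 87.6 CPM in lesion-free pools, whereas the groups overlap for NR1H3, FASN, MYLIP and LPCAT3.

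The receptor itself was among the rows that were not called. NR1H3, which is LXR alpha, stood at 30.9, 30.3 and 62.4 CPM in lesion pools 1, 2 and 3, against 34.3, 22.5 and 19.6 CPM in lesion-free pools 4, 5 and 6. Lesion pool 3 was the highest, and the other lesion pools lay below lesion-free pool 4. Its log2 fold was 0.68 with a 95% interval from -0.12 to 1.49 (limma adjusted p = 0.546). NR1H2, LXR beta, was at 204 ± 20.03 CPM in lesion pools and 301.4 ± 42.2 CPM in lesion-free pools (SD of 3 pools). Every lesion pool was below every lesion-free pool, but the row was not called (log2 fold -0.56, limma adjusted p = 0.459). RXRB, a partner of LXR, was also separated, at 18.8, 39.4 and 53.0 CPM against 67.6, 73.6 and 71.9 CPM in lesion-free pools, without a call (limma adjusted p = 0.293). It was chosen after its values were seen. NCOR1, a co-repressor of nuclear receptors, averaged 109.1 ± 5.15 CPM with lesions and 107.5 ± 50.8 CPM without (SD, n = 3 each). Of 12 receptor and co-regulator rows tested, NR1H3 included, 0 were called in either direction, with a median log2 fold of 0.24. At an unadjusted p under 0.05, 1 was higher and 2 lower, against the shares of 6.47% and 4.17% over all tested rows. The higher row was PPARG, a nuclear receptor that passed the low-count filter only through its lesion pools.

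Among the genes that move cholesterol out of cells, APOE had the largest called difference of the 11 rows. APOE, the apolipoprotein that macrophages secrete and that lipoprotein receptors bind, was at 2376, 2945 and 4942 CPM in lesion pools 1, 2 and 3, against 87.6, 41.8 and 57.1 CPM in lesion-free pools 4, 5 and 6. The lowest lesion pool was far above the highest lesion-free pool. The fold was 54.4, with a 95% interval from 32.6 to 90.8 (log2 5.76, SE 0.35, limma adjusted p = 7.95e-07), and no tested row had a smaller p. The highest and lowest pool differed 2.08-fold within the lesion group and 2.09-fold within the lesion-free group.

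ABCA1 carries cholesterol and phospholipid from the cell to lipid-poor apolipoprotein. Its symbol row, ENSSSCG00000026173, was at 220.8, 103.6 and 82.1 CPM in lesion pools, against 17.0, 26.8 and 16.9 CPM in lesion-free pools. Lesion pool 1 stood 2.69-fold above lesion pool 3, and all lesion pools lay above the lesion-free pools. It was 6.15-fold higher, with a 95% interval from 3.34 to 11.3 (limma adjusted p = 0.00425). The identifier row was at 31.1, 43.4 and 31.7 CPM in lesion pools, against 3.02, 8.51 and 9.04 CPM in lesion-free pools. Here lesion pool 2 was the highest, and the groups again did not overlap. It was 5.75-fold higher, with a 95% interval from 2.73 to 12.1 (limma adjusted p = 0.0222).

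The name of the identifier row is uncertain. The isoform table has an isoform with the same counts that is named NIPSNAP3A-201, a name carried by 8 isoforms. The gene row with the symbol NIPSNAP3A had another pattern, with 33, 197 and 148 counts in lesion pools against 125, 165 and 145 in lesion-free pools (log2 fold -0.28, limma adjusted p = 0.855). The log2 ratio of the symbol row to the identifier row averaged 1.82 ± 0.87 in lesion pools and 1.67 ± 0.79 in lesion-free pools (SD, n = 3 each). That difference of 0.14 was within the spread (exact permutation p = 0.8). With both rows summed, ABCA1 was 6.10-fold higher (limma adjusted p = 0.0015). The call of the identifier row was lost when a lesion-free pool was omitted, with limma adjusted p = 0.0508 without pool 4, 0.0813 without 5 and 0.0904 without 6. The symbol row was called whichever pool was left out (adjusted p up to 0.0219), and so was APOE (up to 2.93e-05).

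ABCG1 moves cholesterol to mature high-density lipoprotein, and PLTP, the phospholipid transfer protein, remodels those particles. ABCG1 had 126, 67 and 32 counts in lesion pools, or 24.2, 5.98 and 2.92 CPM, against 8, 7 and 0 counts in lesion-free pools, or 0.863, 0.839 and 0 CPM. The lesion pools spread 8.29-fold, with pool 1 the highest. The interval of its log2 fold of 4.11 reached from -0.07 to 8.29, and it was not called (limma adjusted p = 0.476). PLTP had 160, 243 and 640 counts in lesion pools, or 30.8, 21.7 and 58.4 CPM, against 17, 0 and 14 counts in lesion-free pools, or 1.83, 0 and 1.42 CPM. Its groups were well apart. The log2 fold of 5.87 had a standard error of 1.70 and was not called (limma adjusted p = 0.164). Omitting a lesion-free pool at 0 lowered these log2 folds, to 2.66 for ABCG1 without pool 6 and to 4.37 for PLTP without pool 5. The 0 of PLTP in lesion-free pool 5 allows up to 0.359 CPM, and that of ABCG1 in lesion-free pool 6 up to 0.305 CPM, for counting error only.

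The list of efflux and high-density lipoprotein genes included both ABCA1 rows, ABCG1 and PLTP. Of its 11 rows tested, 2 were called higher, the symbol and identifier rows of ABCA1, and 0 lower. Over all tested rows, 0.968% were called higher and 0.0771% lower. The median log2 fold of the list was 0.56. ABCG1 and PLTP passed the low-count filter only through their lesion pools, so this median only describes the rows. TSPO, a mitochondrial protein of sterol transport, was at 111 and 107.5 CPM in lesion and lesion-free pools, CAV1, the coat protein of caveolae, at 191.7 and 242.4 CPM, and LIPG, the endothelial lipase, at 39.3 and 50.8 CPM. None of these 3 was called (limma adjusted p = 0.982, 0.66 and 0.685).

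**Figure D2:**
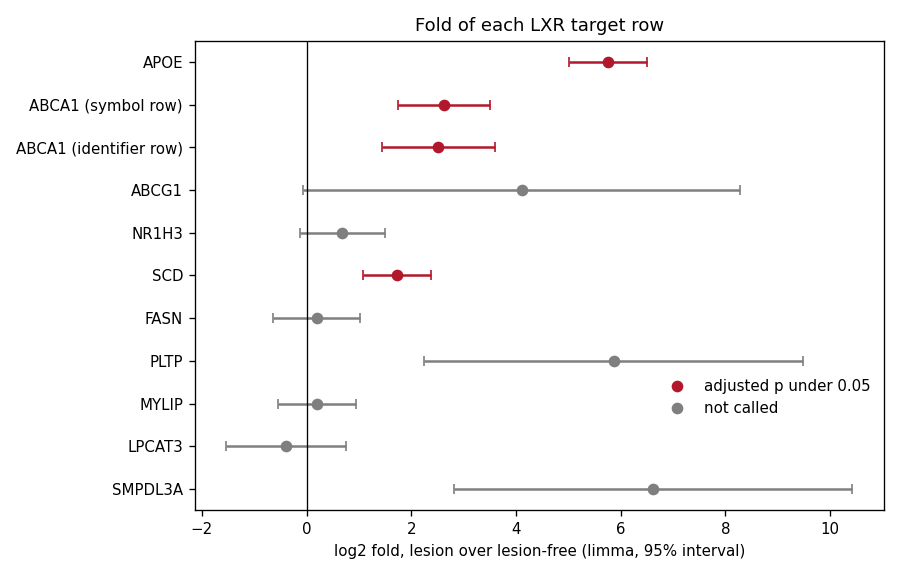
Log2 fold of each row, lesion over lesion-free (horizontal axis), from limma, with its 95% interval as a bar. Red rows passed an adjusted p under 0.05 and grey rows did not. SMPDL3A and PLTP have larger fitted folds than ABCA1 or SCD but wider intervals. Their lesion-free pools held 42 and 31 counts in all.

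SMPDL3A, an acid phosphodiesterase that human macrophages release and whose gene LXR switches on in human cells, had 1104, 561 and 949 counts in lesion pools, against 32, 8 and 2 in lesion-free pools. In CPM this was 212.2, 50.1 and 86.6, against 3.45, 0.958 and 0.203. No lesion pool came near a lesion-free pool, and both groups spread widely, 4.24-fold in lesion and 17.0-fold in lesion-free pools. The fitted log2 fold was 6.62 with a 95% interval from 2.82 to 10.43, and the row was not called (limma adjusted p = 0.131). It was called without lesion pool 1 (adjusted p = 0.033) or 2 (adjusted p = 0.00792), and the range over all 6 omissions ran up to 0.522.

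The related acid sphingomyelinase SMPD1 was at 37.0 ± 2.75 CPM in lesion pools and 44.6 ± 8.77 CPM in lesion-free pools (SD of 3 pools), without a call (limma adjusted p = 0.782). Of 8 sphingomyelin and phosphodiesterase rows tested, SMPDL3A included, 1 was called higher and 0 lower, with a median log2 fold of 0.72. SMPDL3A and its relative SMPDL3B passed the low-count filter only through their lesion pools, so this median only describes the rows. The called row was ASAH1, the acid ceramidase of the lysosome, at 203.3, 81.9 and 128.4 CPM in lesion pools against 36.3, 13.9 and 36.5 CPM in lesion-free pools (4.72-fold, limma adjusted p = 0.019). Without lesion pool 1 or lesion-free pool 5 its call was lost (adjusted p up to 0.0679). SMPD4, a neutral sphingomyelinase, was at 20.2 and 30.4 CPM in lesion and lesion-free pools without a call (limma adjusted p = 0.632).

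Of the lipid-building targets, SCD rose and FASN was not called. SCD, which puts the double bond into stearate and palmitate, was at 318.6, 184.4 and 275.3 CPM in lesion pools, against 54.5, 82.6 and 100.4 CPM in lesion-free pools. The lowest lesion pool exceeded the highest lesion-free pool. The fold was 3.30, with a 95% interval from 2.09 to 5.2 (limma adjusted p = 0.0106), and SCD was called whichever pool was left out (adjusted p up to 0.0428). FASN, the fatty acid synthase, was at 37.1, 48.5 and 52.6 CPM in lesion pools, against 20.5, 57.0 and 58.4 CPM in lesion-free pools. Lesion-free pool 4 was the lowest and the other lesion-free pools the highest of all 6. The fold was 1.14, with a 95% interval from 0.640 to 2.03 (limma adjusted p = 0.894).

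A further row without a symbol, ENSSSCG00000023044, shares its counts with an isoform that is also named FASN-201. It was at 59.4, 51.6 and 45.8 CPM in lesion pools, against 86.9, 41.0 and 63.3 CPM in lesion-free pools, and was not called either (log2 fold -0.25, limma adjusted p = 0.811). Whether it is part of FASN was not tested.

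Of 13 fatty acid synthesis and desaturation rows tested, FASN included, SCD was the only one called higher and 0 were lower. Their median log2 fold was -0.19. FADS1 and FADS2, which desaturate polyunsaturated fatty acids, were at 45.9 ± 21.5 and 48.0 ± 14.8 CPM in lesion pools, against 109.5 ± 22.1 and 77.9 ± 10.8 CPM in lesion-free pools (SD of 3 pools). In both genes every lesion pool lay below every lesion-free pool, and neither was called (limma adjusted p = 0.15 and 0.427). ACACA, acetyl-CoA carboxylase, was at 51.4 and 50.7 CPM in lesion and lesion-free pools (limma adjusted p = 0.896). Fat cell markers, which FASN and SCD could share, summed to 54.2, 105.7 and 82.5 CPM in lesion pools and 51.2, 108.2 and 103.5 CPM in lesion-free pools over 6 rows, with 0 of 5 tested rows called and leptin (LEP) at 0 in all pools. The part of fat cell RNA in the values of SCD and FASN was not tested.

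MYLIP, the ubiquitin ligase known as IDOL that marks lipoprotein receptors for breakdown, was at 27.3, 57.4 and 44.2 CPM in lesion pools, against 28.1, 53.1 and 36.0 CPM in lesion-free pools. The groups overlapped over nearly their whole range, with a log2 fold of 0.20 and a 95% interval from -0.55 to 0.95 (limma adjusted p = 0.878). VLDLR, a receptor it acts on, was at 335.9, 343.2 and 340.6 CPM in lesion pools against 237.7, 309.1 and 351.0 CPM in lesion-free pools, and was not called (limma adjusted p = 0.817). Of 6 receptor rows tested, 0 were called, with a median log2 fold of -0.14. LRP5 and LRP6, relatives that serve Wnt signals, were at 176.2 and 186.9 CPM in lesion pools and 283.2 and 136.7 CPM in lesion-free pools.

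LPCAT3, which inserts polyunsaturated chains into membrane phospholipid, was at 15.4, 5.89 and 8.30 CPM in lesion pools, against 14.8, 5.27 and 14.3 CPM in lesion-free pools. Lesion pool 1 was the highest and lesion-free pool 5 the lowest of the 6 pools, so the groups overlapped. The log2 fold was -0.39 with a 95% interval from -1.54 to 0.76 (limma adjusted p = 0.835). Of 10 phospholipid remodelling rows tested, LPCAT3 included, 0 were called, with a median log2 fold of -0.14. Its relatives LPCAT1 and LPCAT4 stood at 29.0 and 49.5 CPM in lesion pools and 32.4 and 77.4 CPM in lesion-free pools, and MBOAT7 at 45.1 and 51.6 CPM.

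**Figure D3:**
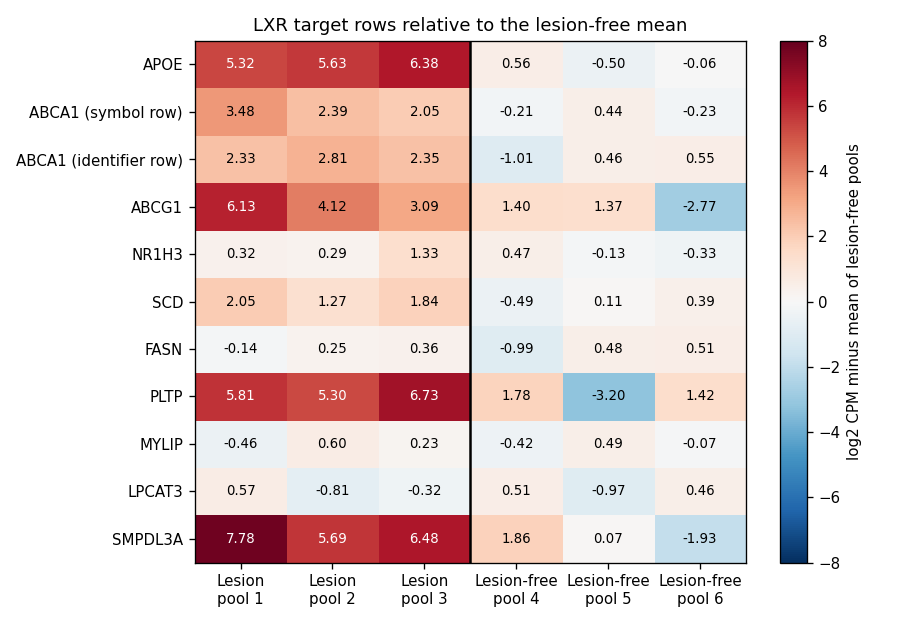
Log2 CPM of each row (vertical axis) in each pool (horizontal axis) minus that row's mean over the lesion-free pools, with the value printed in each cell and red for higher. Lesion pool 1 has the highest value of the 3 lesion pools for ABCA1 (symbol row), ABCG1, SCD, LPCAT3 and SMPDL3A, and lesion pool 3 for APOE, NR1H3, FASN and PLTP.

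The order of the lesion pools differed between rows. With the lesion-free mean set to 0, ABCG1 stood at 6.13, 4.12 and 3.09 on the log2 scale in lesion pools 1, 2 and 3, and the ABCA1 symbol row at 3.48, 2.39 and 2.05. Both were highest in pool 1 and lowest in pool 3. APOE was highest in pool 3, at 5.32, 5.63 and 6.38, as was PLTP, at 5.81, 5.30 and 6.73. NR1H3 also had its highest value in pool 3, at 0.32, 0.29 and 1.33. These orders rest on 1 library each, and no test of them is possible. The summed macrophage markers were lowest in pool 2, as were SCD, PLTP, SMPDL3A, NR1H3 and LPCAT3 among the lesion pools.

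Most macrophage marker rows, like the called rows, were higher in lesion than in lesion-free pools. Of 11 tested macrophage rows, 8 were called higher and 0 lower, with a median log2 fold of 3.08. Over all tested rows, 0.968% were called higher and 0.0771% lower. TREM2, a receptor of lipid-laden macrophages, had 0 counts in every lesion-free pool, so only its lesion pools could carry it past the low-count filter. CD163, a scavenger receptor of resident macrophages, had 0, 0 and 0.547 CPM in lesion pools and 0, 0 and 0.711 CPM in lesion-free pools. Each LXR target was also set as a percentage of the summed macrophage markers of the same pool, a measure added after the data were seen. By this measure APOE was at 75.7%, 208.6% and 167.9% in lesion pools and 24.3%, 16.9% and 29.7% in lesion-free pools, so the groups were apart here too. SMPDL3A, at 6.76%, 3.55% and 2.94% against 0.958%, 0.387% and 0.106%, and PLTP, at 0.979%, 1.54% and 1.98% against 0.509%, 0% and 0.740%, were likewise separated upward.

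The ABCA1 symbol row overlapped between groups on this measure, at 7.03%, 7.34% and 2.79% in lesion pools and 4.73%, 10.8% and 8.78% in lesion-free pools (exact permutation p = 0.5). The identifier row and ABCG1 also overlapped (exact permutation p = 0.6 and 0.5). SCD was separated downward, at 10.2%, 13.1% and 9.35% in lesion pools and 15.1%, 33.3% and 52.3% in lesion-free pools, as were NR1H3, FASN, MYLIP and LPCAT3. In all, 3 rows were separated upward, 5 downward and 3 overlapped. Over all 11673 tested rows, 0.565% were separated upward and 83.4% downward on this measure, because the mean macrophage sum it divides by was 9.37 times as high in lesion pools. The downward rows therefore show nothing particular to LXR targets. Of the upward rows, PLTP and SMPDL3A passed the low-count filter only through their lesion pools, which favoured a higher lesion level in advance. The upward count therefore only describes the rows. How much of each difference comes with macrophage RNA was not tested.

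**Figure D4:**
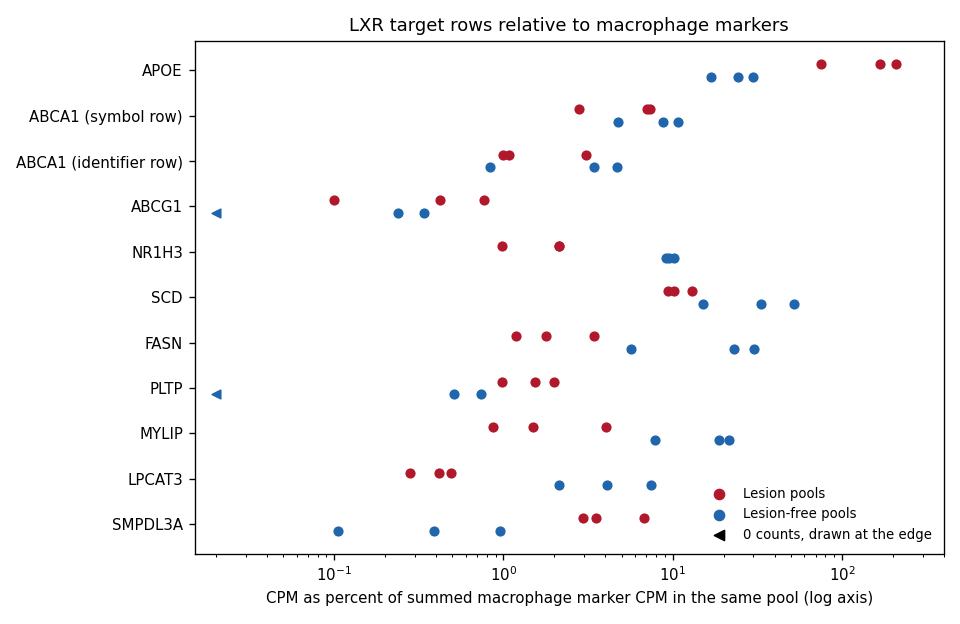
Level of each LXR target row as a percentage of the summed macrophage marker level of the same pool (horizontal log axis), with lesion pools in red above lesion-free pools in blue. Pools with 0 counts are drawn as triangles at the left. APOE, PLTP and SMPDL3A have every lesion pool to the right of every lesion-free pool, and SCD, NR1H3, FASN, MYLIP and LPCAT3 have every lesion pool to the left.

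Of the remaining marker lists, 2 of 5 tested smooth muscle rows, CNN1 and DES, were called lower and 0 higher, and 0 were called among 4 endothelial, 5 fibroblast, 4 nerve, 3 T cell and 2 hepatocyte rows tested. The summed hepatocyte level was 43.8, 54.8 and 79.4 CPM in lesion pools and 92.5, 38.6 and 60.1 CPM in lesion-free pools, nearly all of it from the APOA1 rows, while albumin (ALB) was at 0, 0.535 and 0.456 CPM in lesion pools and at 0 in every lesion-free pool.

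In APOE the isoform ENSSSCT00000003426 held every count of the gene and was called higher (log2 fold 5.77, limma adjusted p = 0.000147). In ABCA1 the main isoform ABCA1-001 was higher (log2 fold 2.64, limma adjusted p = 0.0461), and so was SCD-001 (log2 fold 1.81, limma adjusted p = 0.0386). ABCA1-001 lost its call with median-of-ratios scaling (adjusted p = 0.0555), with a 5 CPM filter (0.0505) and without lesion pool 3 or any lesion-free pool (up to 0.189). SCD-001 lost its call in each omission except that of lesion pool 2 (up to 0.17), and APOE was called throughout. These were the 3 isoforms of the listed genes that were called, where 0.418% of 12666 tested isoforms were called higher and 0.0316% lower. The isoform with the same counts as the ABCA1 identifier row was not called (log2 fold 2.52, limma adjusted p = 0.0881).

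ABCA1-002 had 182, 243 and 76 counts in lesion pools and 0 in each lesion-free pool. It made up 15.1 ± 6.28% of the ABCA1 symbol row's counts in lesion pools (SD, n = 3). Over the lesion-free pools 0 of 548 counts were assigned to it, which allows a share of up to 0.547%, for counting error only. The isoform was not called (limma adjusted p = 0.33), and a test of unequal isoform change did not call ABCA1 (limma diffSplice adjusted p = 0.45) or SCD (adjusted p = 0.796). That test called 0.666% of 601 genes. Isoform ABCA1-201 had 67 counts in lesion-free pool 6 and 0 in the 5 other pools. SCD-004 held 3.17 ± 3.83% of SCD counts in lesion pools and 8.72 ± 6.01% in lesion-free pools (SD, n = 3 each). How reads common to several isoforms were divided is not stated, and the error of that step is not in these values.

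Beyond the 11 rows, 8 lists of the LXR, sterol and phospholipid pathways held 91 further rows, of which 71 were tested, 2 were called higher and 0 lower. At an unadjusted p under 0.05, 11 were higher and 10 lower, beside 6.47% and 4.17% of all tested rows. Among the higher rows, PPARG, PLA2G7 and SMPDL3B passed the low-count filter only through their lesion pools, so this count only describes the rows. The called rows were ASAH1, given above, and LIPA, the lysosomal lipase that frees cholesterol from its esters. LIPA was at 276.9, 80.0 and 118.8 CPM in lesion pools against 14.9, 12.7 and 17.3 CPM in lesion-free pools, 9.05-fold higher (limma adjusted p = 0.00425), and was called whichever pool was left out. LIPA was the only called row of 13 oxysterol and cholesterol handling rows tested, with a median log2 fold of 0.67.

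In that list NPC2, which carries cholesterol out of lysosomes, was at 295.3 ± 44.1 CPM in lesion pools and 186 ± 36.3 CPM in lesion-free pools, without a call. The cholesterol synthesis enzyme LSS averaged 22.8 ± 4.78 CPM with lesions and 49.3 ± 19.4 CPM without (SD of 3 pools), also without a call (limma adjusted p = 0.264). Of 10 other LXR target rows tested, 0 were called, with a median log2 fold of 0.03. TGM2, a transglutaminase, was at 1060.6 ± 48.6 CPM in lesion pools and 1662 ± 422 CPM in lesion-free pools, and RARA, a retinoic acid receptor, at 41.7 ± 8.52 and 36.9 ± 4.95 CPM (SD, n = 3 each). Listed genes without a matched row, among them SREBF1, RXRA, APOC1 and LPL, were not analysed here.

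The rows closest to APOE in their course over the 6 pools were sought by the root mean square difference of log2 CPM, each row taken relative to its own lesion-free mean. Over 10044 candidate rows the median difference from APOE was 4.16. The closest were UNC5A (0.46), GLIS1 (0.53), HAVCR2 (0.60), S100A4 (0.61) and CXCL14 (0.73). UNC5A and GLIS1 had 0 counts in each lesion-free pool and 3.56 ± 1.26 and 2.99 ± 1.27 CPM in lesion pools, so their likeness rests on the added count. HAVCR2, an immune checkpoint receptor, was at 81.1, 54.0 and 54.8 CPM in lesion pools against 0.971, 1.08 and 1.32 CPM in lesion-free pools. S100A4, a calcium-binding protein, was at 234.2, 232.3 and 422.6 CPM against 13.3, 7.19 and 8.33 CPM. Lesion pool 3 was the highest for S100A4 and GLIS1, as for APOE, whereas it was pool 1 for HAVCR2 and CXCL14 and pool 2 for UNC5A. All were picked for likeness over these same pools.

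For the ABCA1 symbol row the median difference was 2.04, and the closest rows were PIK3AP1 (0.26), TLR4 (0.28), MCF2L (0.33), AASDH (0.34) and PRDM1 (0.37). PIK3AP1, an adaptor of phosphoinositide 3-kinase in immune cells, was at 94.4, 48.5 and 60.2 CPM in lesion pools and 9.60, 15.8 and 8.03 CPM in lesion-free pools. TLR4, the receptor of bacterial lipopolysaccharide, was at 53.2, 17.9 and 16.0 CPM against 3.45, 7.31 and 2.54 CPM, without a call (limma adjusted p = 0.171). Both had lesion pool 1 as their highest lesion pool and lesion-free pool 5 as their highest lesion-free pool, as ABCA1 did. They were picked for likeness over these same pools, so the shared order is no separate result.

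**Figure D5:**
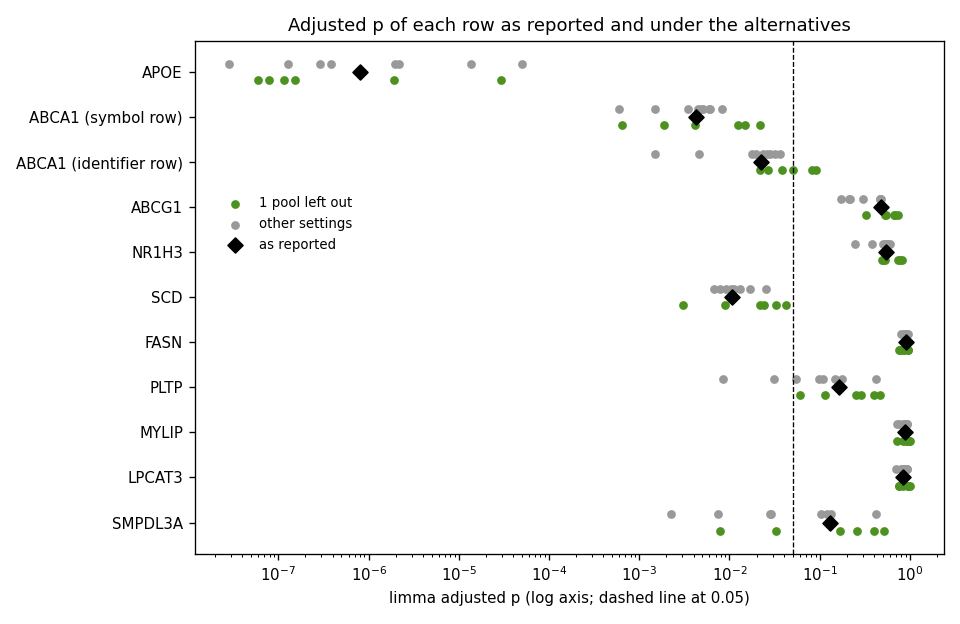
Limma adjusted p of each row (horizontal log axis, dashed line at 0.05) as reported (black), with 1 pool left out (green) and under the other settings (grey). APOE, ABCA1 (symbol row) and SCD stay left of the line throughout, ABCA1 (identifier row) crosses it with 1 lesion-free pool left out, and PLTP and SMPDL3A lie on both sides of it.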

How the data were processed

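The libraries keep the strand and were made from total RNA, per the labels' protocols. The authors deposited counts per gene and per isoform, 1 column per pool, not normalized as far as the values show. RSEM 1.3.0 and edgeR are named, with no role, in the submitters' processing notes. Aligner, genome build and annotation: not given in the sources used here, and therefore no coordinates are printed. All 137166 values of the gene table were whole numbers, and the commas of 8249 values were removed. Because of those commas the columns could not be recorded as counts, and limma was used as the test. No further step was inferred.

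Rows with 10 counts in a library of median size (1.00 CPM) in at least 3 pools and 15 counts in all were tested with limma 3.58.1 in R 4.3.3, using voom weights (0.5 added to each count), TMM factors (trimming 30% of M and 5% of A) and robust empirical Bayes. Folds are lesion over lesion-free, p-values are two-sided and adjusted by Benjamini and Hochberg over all tested rows, with a threshold of 0.05. The code of the fit was checked on simulated counts with the same dispersion in every row, which does not test the calls here. Rows were named by symbol, then by identifier or synonym in reference tables, which held 50.1% of identifiers. SREBF1 was not taken from the row ADD1, a symbol another gene can carry. Members, lists and settings were chosen with earlier results of these data known. Besides the members, the rule named every called row of each pathway list and its 3 uncalled rows of highest mean CPM, and 5 rows closest to APOE and ABCA1. Some rows that the rule names are not reported here. Fits with 1 pool left out kept the same tested rows.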

Additional observations from a re-analysis of the deposited data

How the results depend on the processing

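Of the 11 rows, 4 were called higher as reported, and between 3 and 6 under the alternatives. The number was 6 without a low-count filter or with limma-trend and a pseudocount of 2, where PLTP (adjusted p = 0.0311 and 0.00839) and SMPDL3A (adjusted p = 0.0287 and 0.00226) were also called. SMPDL3A was also called with sample quality weights (adjusted p = 0.0284) and limma-trend with a pseudocount of 0.5 (adjusted p = 0.00741). With rows that carry a listed symbol only, an alternative chosen after seeing the data, or with the ABCA1 rows summed, 3 were called. None was called lower under any setting tried. The fold of FASN, never called, turned to -0.05 with sample quality weights and ranged from -0.31 to 0.46 with 1 pool left out, and that of MYLIP ranged from -0.05 to 0.43. The cause was not tested. Over all genes, 122 were called, against 188 without a low-count filter, 253 with quality weights, 193 with a pseudocount of 2 and 57 to 160 with 1 pool left out (67 without lesion-free pool 5, 57 without 6). Pathway rows outside the members called were 2, against 4 with library totals, 5 with quality weights, 7 with a pseudocount of 2 and 1 to 4 with 1 pool left out (1 without lesion pool 1 or lesion-free pool 5, 4 without lesion pool 2). The 3 called isoforms became 2 with median-of-ratios scaling or a 5 CPM filter and 1 to 3 with 1 pool left out, with 1 left without lesion pool 3 or any 1 lesion-free pool. Library totals in place of TMM moved the median of all genes by 0.17 on the log2 scale. Groups shared no replicate number, so no replicate block was fitted. ABCG1, PLTP and SMPDL3A had 15, 31 and 42 lesion-free counts.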

Other observations

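Other lipid genes of the lists had separated groups without passing the adjusted threshold, and were chosen here after their values were seen. Of these, PPARG, PLA2G7 and SMPDL3B passed the low-count filter only through their lesion pools, which favoured a higher lesion level in advance. PPARG, a nuclear receptor that partners with RXR, was at 14.99, 7.85 and 7.94 CPM in lesion pools and 0.863, 0 and 0.305 CPM in lesion-free pools (limma adjusted p = 0.259). PLA2G7, the secreted lipoprotein-associated phospholipase, was at 47.1, 21.3 and 46.1 CPM against 5.93, 5.75 and 0.610 CPM (limma adjusted p = 0.0752). INSIG1, which holds the SREBP processing complex in the endoplasmic reticulum, was at 68.4, 26.2 and 47.4 CPM in lesion pools and 9.06, 12.9 and 13.8 CPM in lesion-free pools (limma adjusted p = 0.0693).

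SOAT1, which esterifies cholesterol, was at 42.7, 16.7 and 21.3 CPM in lesion pools and 5.93, 2.52 and 5.99 CPM in lesion-free pools (limma adjusted p = 0.131). NCEH1, a hydrolase of cholesterol esters, was at 16.5, 17.9 and 17.6 CPM against 4.75, 4.43 and 3.15 CPM, with the lesion pools close together (limma adjusted p = 0.119). SMPDL3B, the relative of SMPDL3A, was at 26.1, 9.99 and 21.8 CPM in lesion pools and 0.755, 2.28 and 2.54 CPM in lesion-free pools (limma adjusted p = 0.187).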
